A study of Mus musculus with 6 samples.

Results

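Liver sinusoidal endothelial cells line the blood channels between plates of hepatocytes. This account covers 10 genes that mark these cells or carry their functions: Stab1, Stab2, Lyve1, Clec4g, Pecam1, Kdr, Oit3, Fcgr2b, Gpr182 and Rspo3. They form a list of gene names and were looked up among the 55487 Ensembl genes (GRCm38) of the count table, and all 10 were found. Whole liver RNA came from 6 male C57BL/6J wild-type mice on a normal chow diet, with 1 library per mouse and all livers taken at 17 weeks of age. The 3 mice of the GalNAc-siNC group received subcutaneous control siRNA, and the 3 mice of the GalNAc-siRnf10 group received siRNA against Rnf10, which encodes a RING-type E3 ubiquitin ligase. In both groups the siRNA was joined to N-acetylgalactosamine (GalNAc), a sugar that hepatocytes take up through the asialoglycoprotein receptor, so the knockdown was directed at hepatocytes and not at the endothelium. All 6 libraries carried 1 batch label. The comparison asks how the endothelial genes stood in livers in which Rnf10 was lowered.

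The sinusoidal endothelium differs from most capillary linings. It is perforated by open fenestrae, lacks a continuous basement membrane, and clears waste macromolecules from portal blood by scavenger receptors of the stabilin, lectin and Fc receptor families. Its growth and identity depend on VEGF that is made by its neighbors and on transcription factors such as GATA4. In turn it releases angiocrine ligands, among them R-spondin 3, Wnt proteins and bone morphogenetic proteins, that set zonation and iron sensing in hepatocytes.

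The 10 genes are protein coding and lie on the minus strand of GRCm38. On chromosome 10 lie Stab2 (ENSMUSG00000035459) from 86841198 to 87008025, Oit3 (ENSMUSG00000009654) from 59422958 to 59441778, Gpr182 (ENSMUSG00000058396) from 127747276 to 127751732 and Rspo3 (ENSMUSG00000019880) from 29452416 to 29535867. Stab1 (ENSMUSG00000042286) occupies 31139013 to 31168641 on chromosome 14, and Lyve1 (ENSMUSG00000030787) occupies 110850607 to 110863239 on chromosome 7. Clec4g (ENSMUSG00000074491) spans 3707064 to 3720651 on chromosome 8, and Pecam1 (ENSMUSG00000020717) spans 106654217 to 106750628 on chromosome 11. Kdr (ENSMUSG00000062960) runs from 75932827 to 75978458 on chromosome 5, and Fcgr2b (ENSMUSG00000026656) runs from 170958617 to 170976547 on chromosome 1.

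Endothelial genes are controlled in part by ETS factors, and AGGAAG is a form of the motif that they read. Of the 10 genes, 5 had an entry in the RefSeq promoter table (GRCm38.p6): Clec4g, Stab1, Stab2, Fcgr2b and Kdr. Within the 250 bases before the start site, on either strand, AGGAAG was found in 3 of these 5 (Clec4g, Stab1 and Stab2) and in 9686 of 32851 RefSeq promoters (29.5%). AGATAA, a form of the GATA factor motif, was in 0 of the 5 and in 9.99% of all promoters. AACAAT, a form of the SOX motif, was in 0 of the 5 and in 9.42%. Only these exact letters were searched, so a 0 does not show that other forms of a motif are absent. Both sequences that follow lie on the minus strand and are written 5′ to 3′ with the motif (or its complement CTTCCT) in capitals. They pair a gene whose count was higher in the GalNAc-siRnf10 group with one whose groups overlapped. The Clec4g window is chr8:3720652-3720901, with 3 matches of which 2 overlap each other, and the Stab1 window is chr14:31168642-31168891, with 1 match.
Clec4g: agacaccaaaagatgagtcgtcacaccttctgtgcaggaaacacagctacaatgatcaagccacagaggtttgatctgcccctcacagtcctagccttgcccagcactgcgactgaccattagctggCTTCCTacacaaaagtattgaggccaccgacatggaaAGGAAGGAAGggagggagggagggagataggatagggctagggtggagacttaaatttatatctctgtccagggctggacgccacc
Stab1: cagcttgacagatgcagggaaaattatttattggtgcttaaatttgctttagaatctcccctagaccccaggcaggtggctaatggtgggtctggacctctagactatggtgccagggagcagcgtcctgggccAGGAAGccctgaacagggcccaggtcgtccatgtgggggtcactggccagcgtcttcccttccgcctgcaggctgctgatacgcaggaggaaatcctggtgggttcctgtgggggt
A match describes letters in the window and is not a measured binding site.

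Total counts were between 26854377 and 33058645 per library, and 3 counts, taken as the limit of detection, were between 9.07e-06% and 1.12e-05% of a library (counting error only). Counts were scaled by TMM, and normalized counts below are on the scale of the mean library. Of the 14046 genes that passed the filter on low counts, 1965 were called (adjusted p under 0.05, edgeR quasi-likelihood test), which was 14.0%. They comprised 943 higher (6.71%) and 1022 lower (7.28%) in the GalNAc-siRnf10 group, and with scaling by total counts alone 747 and 1381. Rnf10 itself was 3869, 4536 and 4040 normalized counts with GalNAc-siNC and 1738, 1820 and 1793 with GalNAc-siRnf10, a fall of 57.0% (adjusted p = 3.29e-09). All 3 treated libraries were below all controls for the targeted gene.

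All 10 endothelial genes passed the filter, and 3 of them were called: Gpr182, Clec4g and Lyve1 rose by 43.5% to 46.6% in the GalNAc-siRnf10 group. No member was called lower. These 3 of 10 stand beside 14.0% of all tested genes in either direction and 6.71% higher. Stab2, on the other side, had the lowest fitted value (-16.3%) and missed the threshold. Stab1, Pecam1 and Rspo3 overlapped between groups. The median log2 fold change of the 10 genes was 0.23, against 0.00221 for all tested genes, with 8 above 0 and 2 below. The groups did not overlap for 7 of the 10 genes, 6 above and 1 below, whereas this held for 32.8% of all tested genes (16.5% above and 16.4% below). For any single gene, an exact permutation test of 3 mice against 3 cannot give a p below 0.1. Groups that do not overlap give that value by construction, and no such test was run on single genes. Because whole liver was sequenced, more endothelial cells and more RNA of a gene per cell cannot be told apart in any of these values.

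**Figure D1:**
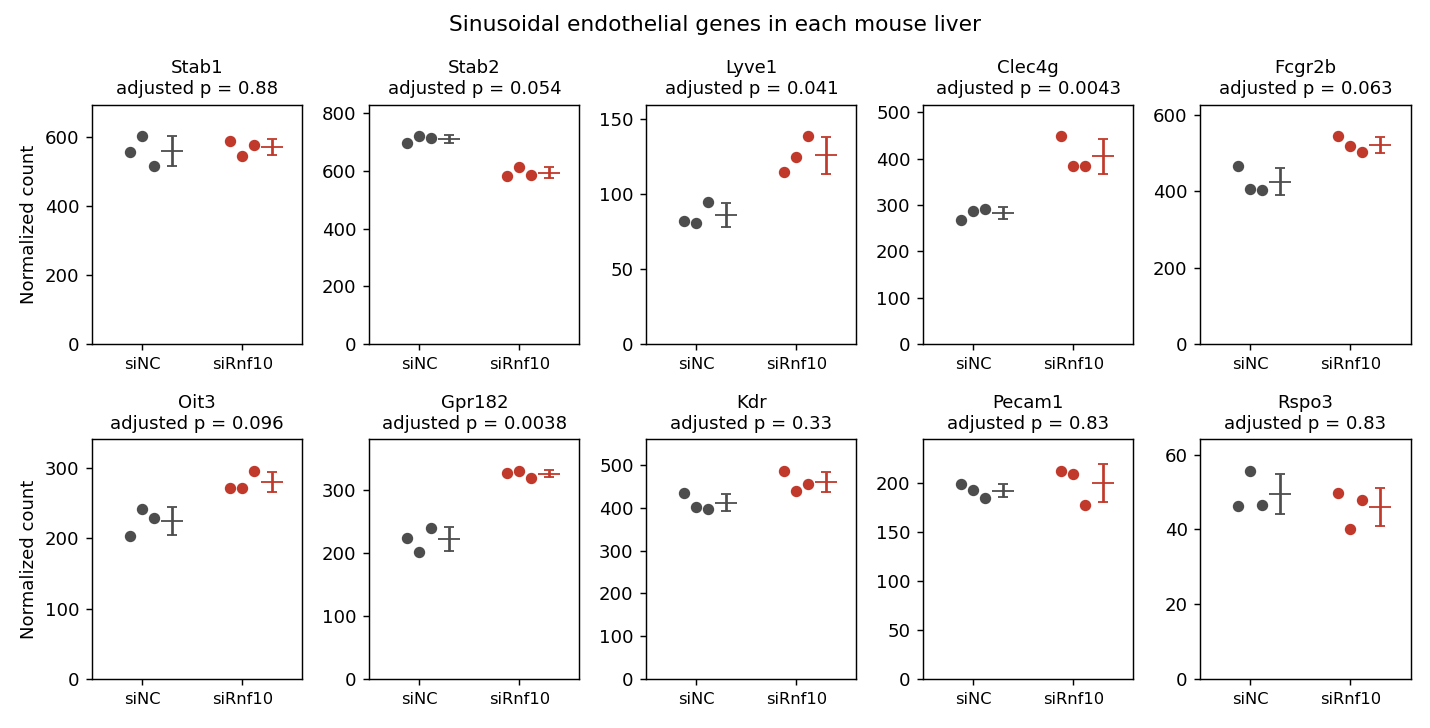
Normalized count of each of the 10 genes (vertical axes, linear from 0, 1 panel per gene) in every mouse, with the GalNAc-siNC mice in gray and the GalNAc-siRnf10 mice in red. The cross beside the points is the group mean ± SD (n = 3), and each panel gives the adjusted p. Gpr182, Clec4g, Lyve1, Kdr, Oit3 and Fcgr2b are separated upward, Stab2 is separated downward, and Stab1, Pecam1 and Rspo3 overlap.

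Gpr182 encodes an atypical chemokine receptor of endothelial cells. It was counted at 225, 202 and 240.1 in the GalNAc-siNC mice and at 328, 331 and 319 in the GalNAc-siRnf10 mice. The control mean was 222 ± 19.1 and the treated mean 326 ± 5.87 (SD, n = 3 each). Every GalNAc-siRnf10 mouse was above every control, and the treated mice lay closer together than the controls. The log2 fold change was 0.55 (SE 0.117, 95% interval 0.30 to 0.80, adjusted p = 0.00381). Its exons share 74 bases (1.87% of the gene model) with Zbtb39 on the opposite strand, and the strand setting of the counting is not given in the sources used here. Zbtb39 had 187 to 331 counts per library and a log2 fold change of -0.26 (adjusted p = 0.201), the opposite sign to Gpr182.

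Clec4g encodes LSECtin, a C-type lectin of the sinusoidal surface that binds glycans. Its counts were 267, 288 and 291 with GalNAc-siNC and 449, 383 and 383 with GalNAc-siRnf10, or 282 ± 13.1 against 405 ± 37.7 (SD, n = 3 each). The groups were apart, and mouse 1 of the GalNAc-siRnf10 group was well above the other two. The log2 fold change was 0.52 (SE 0.112, 95% interval 0.28 to 0.76, adjusted p = 0.00426). Without that mouse it was 0.44 with an adjusted p of 0.0486. Clec4g and Gpr182 were called under each of the 15 alternatives tried.

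Lyve1, the hyaluronan receptor, is also made by lymphatic vessels and by some macrophages. Its normalized count was 81.8, 80.4 and 94.9 in the controls and 114, 124 and 138 in the GalNAc-siRnf10 mice. The groups did not overlap, although these counts were among the lowest of the 10 genes. The group means were 85.7 ± 7.95 and 126 ± 12.2 (SD, n = 3 each), with a log2 fold change of 0.55 (SE 0.172, 95% interval 0.19 to 0.92, adjusted p = 0.0414). The call was lost under 9 of the 15 alternatives, where the adjusted p ranged up to 0.174. These included leaving out GalNAc-siNC mouse 1 (0.0598) or 2 (0.106) and GalNAc-siRnf10 mouse 1 (0.0716), 2 (0.113) or 3 (0.174), DESeq2 (0.0555) and limma voom (0.0632).

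Stabilins are the main scavenger receptors of this endothelium. Stab2, which takes up hyaluronan and other polyanions, had 696, 721 and 714 normalized counts with GalNAc-siNC and 582, 615 and 586 with GalNAc-siRnf10. Every treated mouse was below every control, and the mice within each group lay closer together than for most of the 10 genes. The means were 711 ± 12.7 and 594 ± 17.9 (SD, n = 3 each), a log2 fold change of -0.26 (SE 0.0852, 95% interval -0.44 to -0.08) with an adjusted p of 0.0544, so Stab2 was not called. It passed the threshold under 5 of the 15 alternatives: upper-quartile scaling (adjusted p = 0.0467), total counts (0.0237), at least 10 counts in every mouse (0.0482), limma voom (0.0327) and leaving out GalNAc-siNC mouse 1 (0.0239). Stab1, its paralog, which clears modified lipoproteins and other ligands and is also made by macrophages, had 557, 603 and 516 counts with GalNAc-siNC and 590.0, 545 and 576 with GalNAc-siRnf10. These ranges overlapped. Its log2 fold change was 0.03 (SE 0.0953, 95% interval -0.17 to 0.23, adjusted p = 0.879), and it turned to -0.02 with total-count scaling and to -0.03 without GalNAc-siNC mouse 3. The exons of Stab1 share 112 bases (1.09%) with Nt5dc2 on the opposite strand, which had 70 to 109 counts per library.

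Fcgr2b, the inhibitory Fc receptor by which sinusoidal cells remove small immune complexes, is also made by B cells and macrophages. It gave 466, 405 and 404 normalized counts in the GalNAc-siNC mice and 545, 517 and 504 in the GalNAc-siRnf10 mice. The groups did not overlap, and mouse 1 was the highest of its group in both. The means were 425 ± 35.2 and 522 ± 20.9 (SD, n = 3 each), with a log2 fold change of 0.29 (SE 0.101, 95% interval 0.08 to 0.51, adjusted p = 0.0626). The gene was not called, but it passed the threshold with limma voom (adjusted p = 0.0218) and without GalNAc-siNC mouse 1 (0.00775).

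Oit3, a secreted zona pellucida domain protein and a marker of liver sinusoidal endothelium, was counted at 203, 241 and 229 with GalNAc-siNC and at 271, 272 and 296 with GalNAc-siRnf10. All treated mice were again above all controls. Its means were 224 ± 19.7 and 279.6 ± 14.2 (SD, n = 3 each), and its log2 fold change was 0.32 (SE 0.122, 95% interval 0.06 to 0.58, adjusted p = 0.0964). It was not called under any of the 15 alternatives.

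Kdr, the VEGF receptor VEGFR2, and Pecam1, the junctional adhesion molecule CD31 of all endothelia, are not specific to sinusoids. Kdr had 435, 403 and 398 counts against 487, 441 and 457 (means 412 ± 20.1 and 462 ± 23.6, SD, n = 3 each). The GalNAc-siRnf10 mice were above the controls, but 1 of them by only a few counts. The log2 fold change was 0.16 (SE 0.1, 95% interval -0.05 to 0.37, adjusted p = 0.327). Pecam1 had 198, 193 and 185 counts against 212, 209 and 178, with means of 192 ± 6.89 and 199.9 ± 19.2 (SD, n = 3 each). The lowest and the highest value both belonged to the GalNAc-siRnf10 group. Its log2 fold change was 0.06 (SE 0.132, 95% interval -0.22 to 0.34, adjusted p = 0.827).

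Rspo3, the angiocrine ligand, amplifies Wnt signaling by removing the E3 ligases ZNRF3 and RNF43 from the cell surface, and in liver it comes mainly from central vein endothelium. It was the scarcest of the 10 genes, with 46.1, 55.7 and 46.4 normalized counts in the controls and 49.7, 40.2 and 47.9 in the GalNAc-siRnf10 mice. The groups overlapped (means 49.4 ± 5.43 and 45.9 ± 5.09, SD, n = 3 each). The log2 fold change was -0.11 with a SE of 0.243, and its 95% interval of -0.62 to 0.41 was the widest of the 10. At such counts sampling alone gives a coefficient of variation of 14.0% in the controls, so a difference of the size seen for Stab2 was not detectable for Rspo3.

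**Figure D2:**
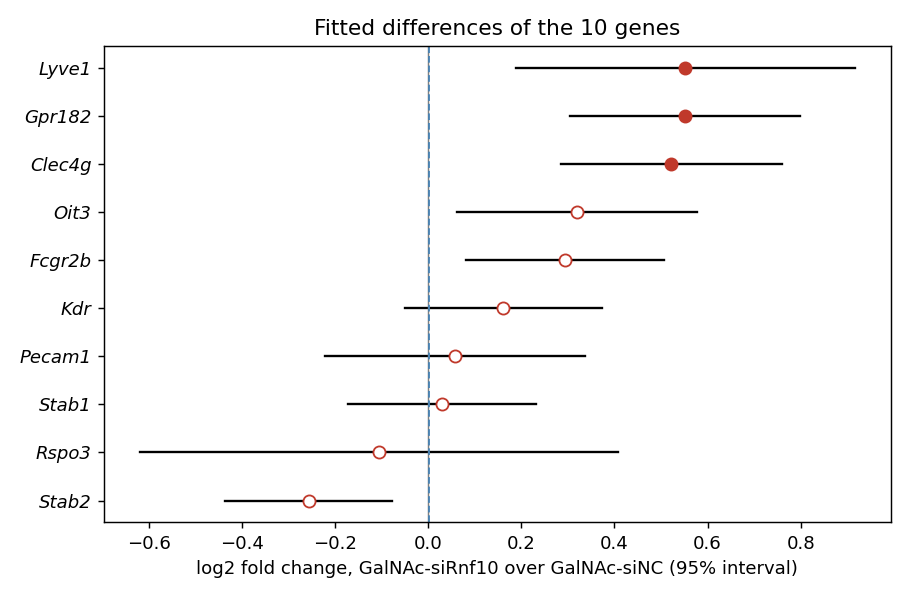
Log2 fold change (horizontal axis, GalNAc-siRnf10 over GalNAc-siNC) of each of the 10 genes with its 95% interval, filled where called. The dashed line marks the median of all tested genes, which almost coincides with 0. The intervals of Lyve1, Gpr182, Clec4g, Oit3 and Fcgr2b lie wholly above 0, that of Stab2 lies wholly below 0, and that of Rspo3 is the widest.

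To compare levels between genes, counts were divided by gene length (RPKM, reads per kilobase of gene model scaled to library size). In the GalNAc-siNC livers the order of these levels was Clec4g (3.86 ± 0.179), Stab2 (2.74 ± 0.0489), Oit3 (2.71 ± 0.238), Fcgr2b (2.47 ± 0.205), Gpr182 (1.89 ± 0.163), Stab1 (1.83 ± 0.144), Kdr (1.54 ± 0.075), Pecam1 (1.04 ± 0.0373), Lyve1 (0.99 ± 0.0918) and Rspo3 (0.539 ± 0.0593; SD, n = 3 mice). Neighbors whose ranges overlapped were Stab2 and Oit3, Oit3 and Fcgr2b, Gpr182 and Stab1, and Pecam1 and Lyve1. The other neighbors were apart. In the GalNAc-siRnf10 livers Clec4g remained the highest (5.55 ± 0.516) and Rspo3 the lowest (0.501 ± 0.0555). Stab2 moved from rank 2 to rank 5 (2.29 ± 0.069), behind Oit3 (3.38 ± 0.172), Fcgr2b (3.04 ± 0.122) and Gpr182 (2.78 ± 0.05). Lyve1 (1.45 ± 0.141) moved past Pecam1 (1.08 ± 0.104). Together the 10 genes took 0.0106% to 0.0110% of the counts in the controls and 0.0115% to 0.0120% in the GalNAc-siRnf10 livers.

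Ratios of counts within a library do not depend on the scaling between libraries. For Gpr182 relative to Stab2 the ratio was 0.323, 0.280 and 0.336 in the GalNAc-siNC mice and 0.563, 0.538 and 0.545 in the GalNAc-siRnf10 mice, a 1.76-fold difference of geometric means. Clec4g relative to Stab2 went from 0.384, 0.399 and 0.408 to 0.771, 0.624 and 0.655 (1.71-fold), and Lyve1 relative to Stab2 from 0.117, 0.112 and 0.133 to 0.196, 0.202 and 0.236 (1.75-fold). These ratios give the size of the gap between genes that were above the controls and one that was below, so their direction was fixed by the choice of genes. Against Pecam1, a general endothelial marker, the same genes were 1.42-fold (Gpr182), 1.38-fold (Clec4g) and 1.41-fold (Lyve1) higher in the GalNAc-siRnf10 group. No other general endothelial marker was used as a denominator, and such markers went both ways. In the wider list below, Cdh5 was lower than the controls in every GalNAc-siRnf10 mouse but not called (log2 fold change -0.25, adjusted p = 0.199). Esam (0.42, 0.123) and Ptprb (0.26, 0.0731) were higher in every GalNAc-siRnf10 mouse and not called. Smaller folds against Pecam1 were found for Oit3 (1.20) and Fcgr2b (1.18), and for Kdr (1.08) the groups overlapped. Of the 18 ratios computed, 6 genes against Stab2, Stab1 and Pecam1, 17 did not overlap between groups. The pairs were chosen after the values were seen and share their denominators, so this count is a description only.

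**Figure D3:**
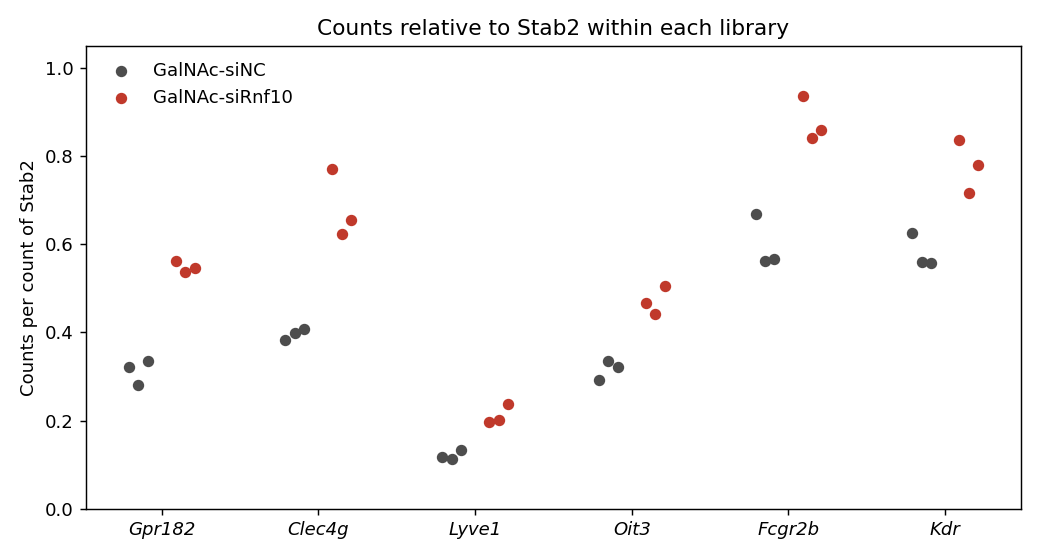
Counts of 6 genes per count of Stab2 in the same library (vertical axis) for each mouse, gray for GalNAc-siNC and red for GalNAc-siRnf10. For each of the 6 genes the 3 GalNAc-siRnf10 mice sit above the 3 controls, from 1.34-fold for Kdr to 1.76-fold for Gpr182.

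A wider list held 36 other genes of sinusoidal and general liver endothelium, of which 35 were tested. Of these, 3 were called higher and 1 lower (11.4%, beside 14.0% of all tested genes). Their median log2 fold change was 0.22, with 28 above 0 and 7 below, and the groups were apart for 14 genes, 12 above and 2 below, beside 32.8% of all tested genes (16.5% above and 16.4% below). Ehd3, an endocytic recycling protein of liver endothelium, rose from 523, 494 and 466 normalized counts to 701, 711 and 747 (log2 fold change 0.54, SE 0.0905, adjusted p = 0.000526). The fitted difference of Gpr182 was 0.55. Aqp1, a water channel also present on bile duct cells, rose from 786 ± 76.8 to 989.6 ± 14 (SD, n = 3 each; log2 fold change 0.33, adjusted p = 0.0148). Adgrf5, an adhesion receptor of endothelium, rose from 281 ± 23.8 to 374 ± 47.5 (0.41, adjusted p = 0.0318). Gata4, the transcription factor of sinusoidal identity that hepatocytes and stellate cells also make, fell from 457, 474 and 454 to 323, 351 and 309 (-0.49, SE 0.103, adjusted p = 0.00342). No treated mouse reached a control for Gata4. Ehd3 and Gata4 were called under all 15 alternatives. The call for Aqp1 was lost without GalNAc-siRnf10 mouse 1 (adjusted p = 0.0740), 2 (0.0760) or 3 (0.0604). The call for Adgrf5 was lost under 6 alternatives, among them leaving out GalNAc-siNC mouse 2 (0.0642) or 3 (0.114) and GalNAc-siRnf10 mouse 2 (0.105) or 3 (0.192). Without GalNAc-siNC mouse 1, 9 genes of the list were called, and without GalNAc-siRnf10 mouse 2 or mouse 3 only 2 were.

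Lists of other vessel types held no called gene in edgeR: 0 of 8 tested central vein genes, 0 of 7 portal and arterial genes and 0 of 8 genes of continuous capillaries, with 2, 1 and 2 at an unadjusted p under 0.05. Since 14.0% of all tested genes were called, 0 calls in lists this short say little about these vessels. DESeq2 also called 0, and limma voom called Vwf, the von Willebrand factor gene held by both the central vein and the continuous capillary list (log2 fold change -0.71, adjusted p = 0.0308, against -0.61 and 0.106 in edgeR). Their median log2 fold changes were 0.19, 0.11 and 0.13. The range in the continuous capillary genes, whose gain marks a loss of the sinusoidal character, was -0.61 to 0.41, with 6 above 0 and 2 below. They include Plvap (0.27, adjusted p = 0.169, groups overlapping), which the wider endothelial list also holds. Rspo3, 1 of the 10 genes, is also in the central vein list.

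**Figure D4:**
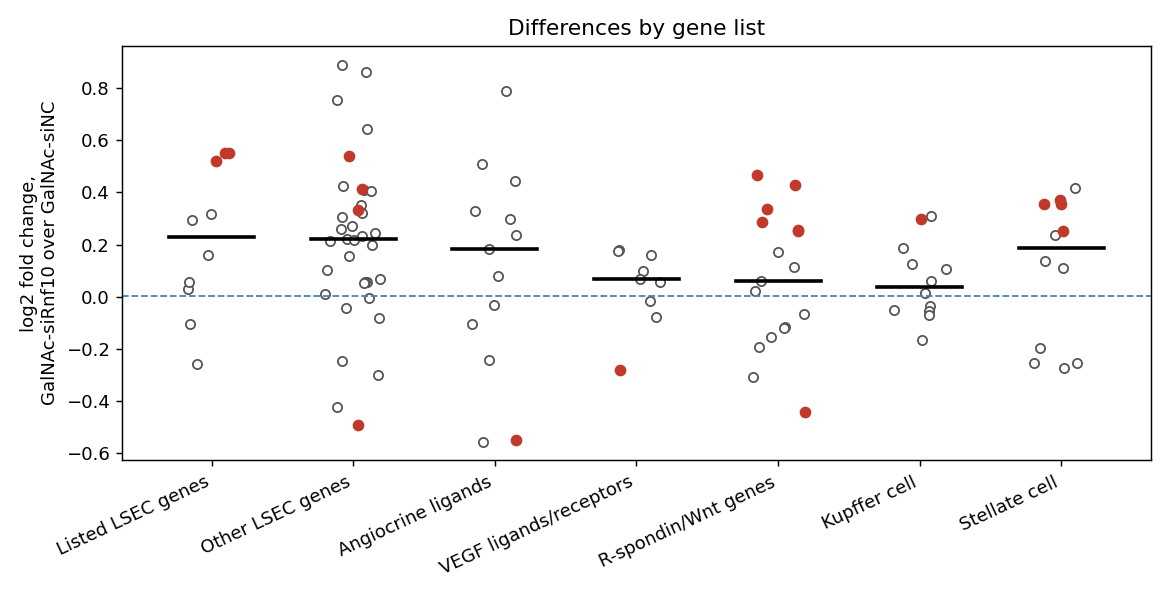
Log2 fold change (vertical axis, GalNAc-siRnf10 over GalNAc-siNC) of every tested gene in 7 lists, filled where called, with a bar at each list's median and a dashed line at the median of all tested genes. The listed sinusoidal genes and the other endothelial genes have medians of 0.23 and 0.22, and the stellate cell markers 0.19.

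Among 13 tested angiocrine ligands, 1 was called (7.69%, beside 14.0% of all tested genes). Jag1, a Notch ligand that bile duct and other cells also make, fell from 145 ± 11 to 99.4 ± 16.1 normalized counts (log2 fold change -0.55, adjusted p = 0.0395), a call lost under 6 of the 15 alternatives: the replicate block (adjusted p = 0.0521) and leaving out GalNAc-siNC mouse 1 (0.0544) or 3 (0.0861) or GalNAc-siRnf10 mouse 1 (0.0868), 2 (0.0611) or 3 (0.190). The ligands that act beside Rspo3 on pericentral hepatocytes were scarce: Wnt2 was at 19.7 ± 1.16 and 24.3 ± 6.32 (adjusted p = 0.648), and Wnt9b at 17.2 ± 5.7 and 20.5 ± 4.88 (adjusted p = 0.753; SD, n = 3 each). Neither separated the groups. Bmp2, which drives hepcidin expression in hepatocytes, had 113, 112 and 119 counts with GalNAc-siNC and 183, 154 and 132 with GalNAc-siRnf10. Those groups were apart, but Bmp2 was not called (log2 fold change 0.44, adjusted p = 0.0799). For Bmp6, its partner in that pathway, the value was -0.24 (adjusted p = 0.58).

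Vegfa is the main ligand of Kdr, and Vegfb, Vegfc and Vegfd encode related factors of the same family. None of the 4 was called. Their log2 fold changes were 0.10 for Vegfa (adjusted p = 0.352), 0.18 for Vegfb (0.489), 0.18 for Vegfc (0.702) and -0.02 for Vegfd (0.986). Of 9 tested genes of this pathway 1 was called (11.1%, beside 14.0% of all tested genes), the co-receptor Nrp1. It fell from 3481, 3254 and 3146 normalized counts to 2758, 2672 and 2708 (log2 fold change -0.28, SE 0.0646, adjusted p = 0.00711), with all treated mice below all controls. The call was lost without GalNAc-siRnf10 mouse 2 (adjusted p = 0.0618) or mouse 3 (0.0559). Per gene length, Nrp1 was at 11.3 RPKM in the controls, where Kdr was at 1.54. Which liver cells its counts came from was not tested.

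On the receiving side of Rspo3, its receptors Lgr4 (log2 fold change -0.19, adjusted p = 0.0806) and Lgr5 (-0.07, 0.841) and the ligases Znrf3 (-0.12, 0.556) and Rnf43 (-0.12, 0.402) were not called. Lgr4 passed the threshold under 3 of the 15 alternatives, among them leaving out GalNAc-siNC mouse 2 (adjusted p = 0.0195). Of 17 tested genes in the list of these receptors and pericentral Wnt targets, 6 were called higher and 1 lower (41.2%, beside 14.0% of all tested genes, 6.71% higher and 7.28% lower). Axin2, the usual readout of canonical Wnt signaling, fell from 211 ± 25.4 to 155 ± 6.83 (-0.44, adjusted p = 0.0447), and this call was lost under 8 alternatives, among them leaving out GalNAc-siNC mouse 1 (0.0823) or 2 (0.112) and GalNAc-siRnf10 mouse 1 (0.106), 2 (0.127) or 3 (0.159). Notum, a secreted Wnt inhibitor, rose from 492 ± 36.9 to 661 ± 22.7 (0.43, adjusted p = 0.0048; SD, n = 3 each). The other called genes encode pericentral hepatocyte enzymes and carriers: Oat (0.47, adjusted p = 6.03e-06), Slc1a2 (0.33, 0.000996), Cyp2e1 (0.29, 0.000326), Rgn (0.26, 0.00311) and Cyp1a2 (0.25, 0.00327). Axin2 and these genes moved in opposite directions, while Glul, the glutamine synthetase of the innermost pericentral hepatocytes, was at 0.06 (adjusted p = 0.509).

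Markers of other liver cells were read beside these values, each list as a whole, and their part in the endothelial values was not tested. The summed normalized count of the 10 endothelial genes was 3119 to 3193 in the controls and 3477 to 3628 in the GalNAc-siRnf10 group. For 12 stellate cell markers the sum was 5296 to 5403 against 6039.9 to 6259, and without Dcn, the gene with the largest difference in counts, 3792 to 3949 against 4193 to 4418.5. Of the 12, 4 were called higher (33.3%, beside 6.71% of all tested genes): Dcn (0.36), Reln (0.35), Colec11 (0.37) and Ecm1 (0.25), all log2 fold changes. Another 4 were below 0 and not called, Lrat (-0.27), Col1a1 (-0.26), Pdgfrb (-0.25, groups apart) and Des (-0.20). Dcn was called under all 15 alternatives, whereas Reln lost its call under 2 (without GalNAc-siRnf10 mouse 1, adjusted p = 0.109, or 2, 0.0606). Colec11 lost it under 5, including without GalNAc-siNC mouse 2 (0.108) or 3 (0.0716) and GalNAc-siRnf10 mouse 1 (0.178) or 3 (0.185), and Ecm1 under 7, including without GalNAc-siNC mouse 3 (0.0899) and GalNAc-siRnf10 mouse 1 (0.187), 2 (0.114) or 3 (0.108).

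For 12 Kupffer cell markers the sum was 10751 to 12019.8 against 12165 to 12679.8, with 1 of 12 called (8.33%, beside 14.0% of all tested genes), the iron exporter Slc40a1 (log2 fold change 0.30), which other cells also make. Without Slc40a1 the sums overlapped, at 7026 to 8688 against 7858 to 8330.3, and 5 of the 12 markers had values below 0. The B cell markers summed to 61.9 to 79 against 63.3 to 75.5 and the T and NK cell markers to 133 to 162 against 114 to 145. Both overlapped, with 0 genes called of 4 and 1 tested (0 at an unadjusted p under 0.05, and 0 called by DESeq2 or limma voom), beside 14.0% of all tested genes. Most of the T and NK cell sum was Cd4, the 1 gene tested. Without Cd4 it was 20.9 to 33.6 against 24.9 to 27.1, which also overlapped. Lymphatic markers summed to 4254 to 5035 against 4709 to 5098, mostly Prox1, which hepatocytes also make. Without Prox1 the sum was 505 to 526 against 639 to 689, mostly Reln, which is also in the stellate list. Of the 6 lymphatic genes 3 were tested, all above 0, and 1 was called, Reln (33.3%, beside 14.0% of all tested genes). The log2 fold changes were 0.35 for Reln, 0.46 for Pdpn (adjusted p = 0.575, 9 to 25 counts per library) and 0.06 for Prox1 (adjusted p = 0.677). The other lymphatic genes, Ccl21a, Mmrn1 and Thy1, had 0, 2 to 6 and 2 to 19 counts per library.

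Platelet markers summed to 81.5 to 91.9 against 90.4 to 104. Most of this was Itga2b, which had 54 to 83 counts and was higher in every GalNAc-siRnf10 mouse but not called (log2 fold change 0.48, adjusted p = 0.16). Without it the platelet sum was 20.6 to 34.8 against 13.6 to 19.1, below the controls. Neutrophil markers were scarce and lower in the GalNAc-siRnf10 group, at 46.1 to 79 against 25.6 to 28.3. The 1 tested neutrophil gene, S100a9, fell (log2 fold change -1.43, adjusted p = 0.0171), and without it the sum was 23.5 to 33.6 against 10.6 to 15.3. Its call was lost without GalNAc-siNC mouse 2 (0.0784) or 3 (0.0702) and without GalNAc-siRnf10 mouse 1 (0.0509), 2 (0.0841) or 3 (0.0602). Cholangiocyte markers were also lower, at 2040.1 to 2085 against 1127 to 1162, and 185 to 257 against 155 to 179 without Spp1. Of 5 tested, all were below 0 and only Spp1 was called (-0.90), beside 14.0% of all tested genes (7.28% lower). Sox9 was at -0.54 with groups apart (adjusted p = 0.0555), and limma voom called 2 of the 5. In a list this short, 1 or 2 calls say little about these cells. The neutrophil and cholangiocyte sums moved opposite to the endothelial sum. Of 12 hepatocyte markers 5 were called higher and 2 lower (58.3%, beside 14.0% of all tested genes). Their sum was 2682953 to 2809401 against 3284409.8 to 3374552, a rise that came from Alb. Without Alb it was 1554351 to 1592503 against 1508919.8 to 1530112, so the direction of the sum turned. The 2 markers called lower were Trf (-0.20) and Fgb (-0.83). Cyp3a11 (1.19), Ttr (0.66), Cps1 (0.58) and Serpina1a (0.21) were called higher beside Alb, all log2 fold changes.

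**Figure D5:**
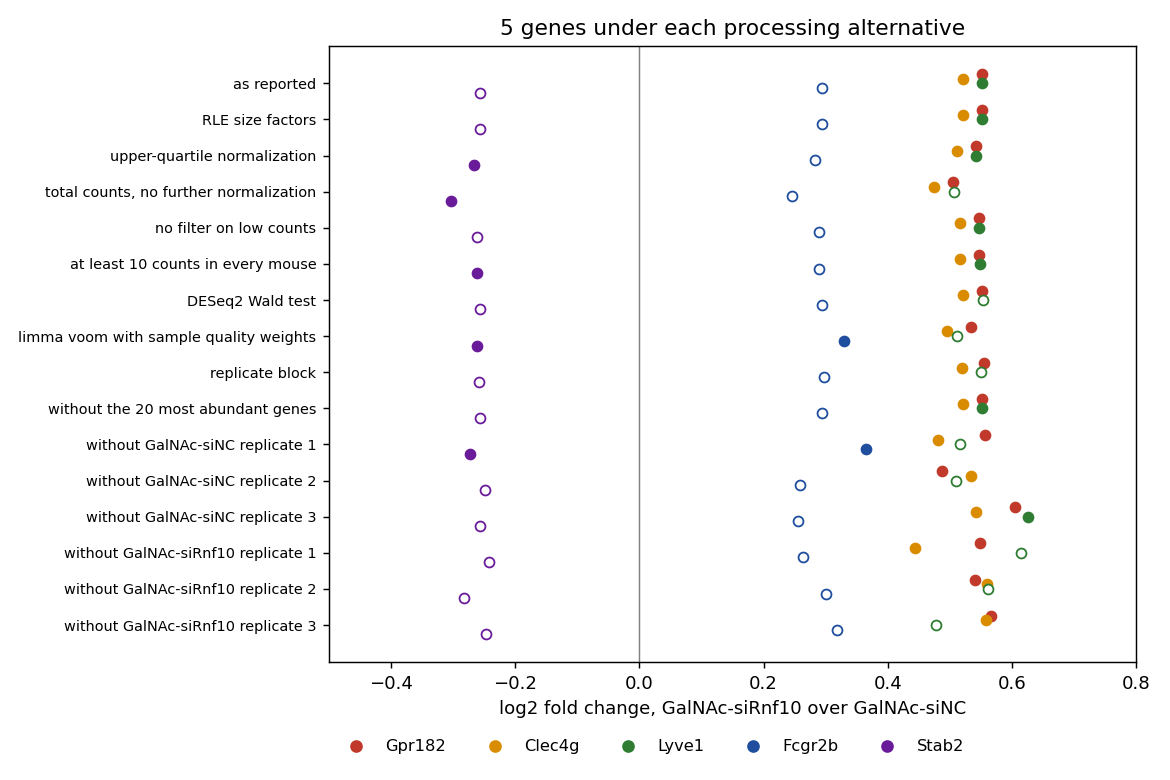
Log2 fold change (horizontal axis) of Gpr182, Clec4g, Lyve1, Fcgr2b and Stab2 as reported and under each of the 15 alternatives (rows), filled where called. Gpr182 and Clec4g are filled in every row, Lyve1 loses its call in 9, and Stab2 and Fcgr2b gain one in 5 and 2.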

How the data were processed

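Liver RNA of 6 mice was sequenced as stranded, paired-end mRNA libraries. Reads were aligned by the authors to GRCm38 (HISAT2), and the deposited values are unnormalized counts of reads for each gene. They also deposited gene model lengths in bases, used here for RPKM. The counting tool, annotation release and strand setting are not given in the sources used here. Symbols were taken from GENCODE M21, and 346 of 55487 identifiers had none.

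Groups came from the labels. For testing, edgeR 4.0.16 was run in R 4.3.3 (filterByExpr, TMM, robust quasi-likelihood F-test, treatment as the only covariate, Benjamini-Hochberg adjustment over 14046 genes). A gene was called at an adjusted p under 0.05. SEs were derived from the F statistic. Sums of cell type markers were also computed without the gene of the largest difference in counts, a choice made after seeing the data. Permutation tests, run on the count ratios only, were exact and two-sided. The biological coefficient of variation was 9.28%, and libraries within a group differed by more than sampling noise. The chi-square per gene was 4.45 to 5.07 between GalNAc-siRnf10 mice and 9.53 between GalNAc-siNC mice 2 and 3. Between GalNAc-siNC mouse 1 and mice 2 and 3 of that group it was 27.8 and 27.1. The groups share mouse numbers but not animals, and deviations of same-numbered mice correlated at -0.033 to 0.023, so no pairing was used.

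The 10 genes and all lists were chosen with earlier results of these data known. The text names every one of the 10 genes, each called gene of the endothelial, angiocrine, VEGF and R-spondin or Wnt lists, and the VEGF, Wnt and BMP ligands, R-spondin receptors and ligases, by rule. The markers of other cell types, Glul, Vwf, Plvap, Cdh5, Esam, Ptprb and the genes on the opposite strand were named after their values were seen. The list of 10 contains Rspo3, which the angiocrine and central vein lists also hold, and Kdr, which the VEGF list also holds. Other lists share genes too, among them Plvap in the wider endothelial and continuous capillary lists. The alternatives were RLE, upper-quartile and total-count scaling, no filter, a filter of at least 10 counts in every mouse, limma voom 3.58.1, DESeq2 1.42.0, the replicate number as a block, removal of the 20 most abundant genes, and leaving out each mouse. Promoters came from RefSeq (GRCm38.p6), and figures were drawn with matplotlib 3.10.9.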

Additional observations from a re-analysis of the deposited data

How the results depend on the processing

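Of the 10 endothelial genes, 2 to 4 were called under the 15 alternatives, and 2 to 4 when 1 mouse was left out. With the replicate number as a block, which does not pair these mice, 2 were called (Lyve1 lost its call, adjusted p = 0.0506), their median log2 fold change was 0.23, and 1816 genes were called in all. Leaving out 1 mouse gave 1053 to 2864 called genes, with 1053 without GalNAc-siRnf10 mouse 1, 1128 without mouse 2 or mouse 3, and 2864 without GalNAc-siNC mouse 1. For the other endothelial genes it gave 2 to 9. With scaling by total counts the median of the 10 genes was 0.18, where the median of all tested genes was -0.045; leaving out 1 mouse gave 0.19 to 0.25. Signs turned for 4 genes that were not called. Stab1 was at -0.018 with total counts and at -0.028 to 0.085 with 1 mouse left out (-0.028 without GalNAc-siNC mouse 3). Lgr5 was at 0.042 with limma voom and at -0.18 to 0.16 with 1 mouse left out (0.16 without GalNAc-siNC mouse 1). Vegfd was at 0.44 with limma voom, at 0.042 with the replicate block, and at -0.40 to 0.27 with 1 mouse left out, 4 of these 6 fits being above 0. Vegfc was at -0.10 to 0.41 with 1 mouse left out, the lowest without GalNAc-siRnf10 mouse 1. The cause of these changes was not tested. A fit that leaves 1 mouse out also rests on fewer mice. Rspo3, with 42 to 54 counts per library, had the widest interval of the 10 genes.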
